A study of Mus musculus with 16 samples.

Results

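Ankrd1, Ankrd2, Ankrd23, Csrp3, Flnc, Xirp1, Xirp2, Fhl1 and Ldb3 encode ankyrin repeat, LIM-domain and actin-binding proteins of the Z-disc and its surroundings in striated muscle. The 9 genes were chosen by name, without a threshold on their values but with earlier results of these data known. They were taken out of 23970 gene symbols in the deposited table, and all 9 were among the 11256 genes that were tested. Their expression was measured by RNA sequencing of quadriceps from 16 male C57BL/6NTac mice aged 16 weeks, in 4 groups of 4. CON mice were fed a diet with 10% of its energy (kcal) from fat and HFD mice a diet with 60%, for 10 weeks, and muscle was taken either at rest, in the groups CON-pre and HFD-pre, or, in the groups CON-post and HFD-post, 3 h after the mice had run to exhaustion on a treadmill. Pre and post libraries came from different mice, and the methods state that the pre mice were acclimatised to the treadmill and fasted like the runners. No transgene, Cre driver or clone was involved.

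The Z-disc anchors the actin filaments of neighbouring sarcomeres and carries tension along the fibre. Several of its proteins are regarded as parts of stretch-sensing complexes, and some move between the Z-disc or the I-band and the nucleus. Ankrd1, Ankrd2 and Ankrd23 form the muscle ankyrin repeat protein family, which binds the spring region of titin in the I-band, and Csrp3, the muscle LIM protein, binds alpha-actinin and telethonin. Flnc, or filamin C, crosslinks actin filaments at the Z-disc and the costamere, and Xirp1 (Xin) and Xirp2 are actin-binding repeat proteins, of which Xirp1 binds filamin C. Fhl1 is a LIM-only protein associated with titin, and Ldb3 (Cypher or ZASP) is a PDZ-LIM protein that links alpha-actinin to signalling enzymes.

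By the RefSeq annotation of GRCm38, the ankyrin repeat genes lie at chr19:36111965-36119844 (Ankrd1), chr19:42035917-42045111 (Ankrd2) and chr1:36530193-36536556 (Ankrd23). The Xin genes lie at chr9:120013755-120023598 (Xirp1) and chr2:67446000-67526620 (Xirp2), and Flnc lies at chr6:29433153-29461889. The genes of the LIM proteins are at chr7:48830398-48848051 (Csrp3), chrX:56731209-56793346 (Fhl1) and chr14:34526699-34590314 (Ldb3). RefSeq promoters, which run from 250 bases before to 50 after a start site, were at hand for 8 of the 9 genes and were searched on both strands for GGAATG, the core site of TEAD factors, for the CArG box of serum response factor, for the MEF2 site, for the E-box CANNTG and for TATAAA. Among 32851 promoters of this length, the TEAD core was found in 14.7%, the CArG box in 1.63%, the MEF2 site in 3.19%, the E-box in 72.3% and TATAAA in 13.6%.

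The promoters of 4 genes called after exercise or spread most widely between libraries, and of the steady Xirp2, are shown from 250 bases before to 5 bases after the first listed start, in GRCm38.p6, 5′ to 3′ along the gene. Capitals mark every motif searched on either strand except the E-boxes, which are left in lower case.
Ankrd1, chr19:36119840-36120094, minus strand: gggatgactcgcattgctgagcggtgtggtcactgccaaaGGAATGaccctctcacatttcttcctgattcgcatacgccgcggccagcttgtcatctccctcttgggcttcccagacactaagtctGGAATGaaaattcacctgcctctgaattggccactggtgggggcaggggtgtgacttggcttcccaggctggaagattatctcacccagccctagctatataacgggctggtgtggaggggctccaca
Flnc, chr6:29432903-29433157, plus strand: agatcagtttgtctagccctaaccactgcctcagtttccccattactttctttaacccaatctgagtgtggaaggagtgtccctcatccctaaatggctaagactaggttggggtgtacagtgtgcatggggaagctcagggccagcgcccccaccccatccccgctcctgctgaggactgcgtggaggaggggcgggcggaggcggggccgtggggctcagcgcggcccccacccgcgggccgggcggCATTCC
Ankrd2, chr19:42035777-42036031, plus strand: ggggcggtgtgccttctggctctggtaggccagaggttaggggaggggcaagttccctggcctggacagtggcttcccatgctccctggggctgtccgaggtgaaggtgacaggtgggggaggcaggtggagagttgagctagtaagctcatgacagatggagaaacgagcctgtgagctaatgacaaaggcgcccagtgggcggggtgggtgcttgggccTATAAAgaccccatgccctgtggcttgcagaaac
Csrp3, chr7:48848047-48848301, minus strand: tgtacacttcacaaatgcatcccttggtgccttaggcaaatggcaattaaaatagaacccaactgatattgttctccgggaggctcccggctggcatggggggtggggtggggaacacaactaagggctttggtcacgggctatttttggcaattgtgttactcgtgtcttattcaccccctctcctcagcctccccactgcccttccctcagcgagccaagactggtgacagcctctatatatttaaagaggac
Xirp2, chr2:67445752-67446006, plus strand: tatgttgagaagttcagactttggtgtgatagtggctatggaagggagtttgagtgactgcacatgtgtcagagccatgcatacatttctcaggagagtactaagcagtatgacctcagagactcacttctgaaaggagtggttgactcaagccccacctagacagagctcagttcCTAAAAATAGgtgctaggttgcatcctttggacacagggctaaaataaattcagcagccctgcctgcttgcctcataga

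The Ankrd1 promoter held GGAATG at 2 places, which begin 210 and 123 bases before the start, and the Flnc promoter held it once on the opposite strand, beginning 1 base before the start. Ankrd23, whose level was steady, also held 1 copy in each of its 2 listed promoters. TATAAA stood 29 bases before the start of Ankrd2, and the Csrp3 promoter held none of the capitalised motifs but 5 E-boxes. The MEF2 site of Xirp2 began 74 bases before its start, and CArG boxes were found 35 bases before the first listed start of Ldb3 and 102 bases before that of Fhl1. These are matches of letters in short windows, and binding was not measured.

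Values are FPKM as the authors estimated them, in which the fragments of a gene are divided by its length and by the fragments mapped in the library. This does not correct for abundant genes that take unequal shares of a library, which limits comparisons between libraries. The 10 most abundant genes took from 29.2% of the FPKM in HFD-post replicate 1 to 36.5% in CON-pre replicate 1. The FPKM of a library summed to 283575 to 329282, and the depth of a library relative to CON-pre replicate 1, read from genes of at most 0.5 FPKM, was 0.705 to 1.12. The libraries correlated with each other at r = 0.966 to 0.984 over the genes tested. Skeletal muscle fibre genes were abundant in every library, among them the fast-fibre gene Myh4 (6821 FPKM or more) and Ckm (10052 or more). Of 6 cardiac markers Nppa and Nppb were listed at 0 in all 16 libraries and Myl7 at 0.235 FPKM or less. Myh6 stood at 0.643 to 3.41, Sln at 1.11 to 6.99 and Actc1, which skeletal muscle also expresses, at 56.0 to 220 FPKM. The summed FPKM of 8 slow-fibre markers, in contrast, ranged from 192 to 760 between libraries and varied within each group as well. Since the tissue was sequenced in bulk, fewer cells of a type and less RNA per cell cannot be told apart.

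The 9 genes together took 0.726 to 1.01% of the FPKM of a library, and their mean levels over the 16 libraries fell into tiers. Ankrd23 (897 ± 109 FPKM, SD, n = 16) and Ldb3 (823 ± 53.9) ranked 28th and 30th among the genes tested. Fhl1 (338 ± 78.4) and Xirp2 (223 ± 23.6) came next, followed by Ankrd2 (140 ± 37.5), Flnc (126 ± 49.9), Csrp3 (98.2 ± 34.6) and Xirp1 (81.5 ± 56.3). Ankrd1 was the least abundant at 31.5 ± 19.0 FPKM. Neighbours in this order differed by less than the larger of their SDs between Ankrd23 and Ldb3 and from Ankrd2 down to Ankrd1. The highest library exceeded the lowest by 1.30-fold for Ldb3, 1.45-fold for Xirp2, 1.46-fold for Ankrd23, 2.43-fold for Fhl1, 2.56-fold for Ankrd2, 2.98-fold for Flnc, 3.71-fold for Csrp3, 8.29-fold for Ankrd1 and 10.3-fold for Xirp1.

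**Figure D1:**
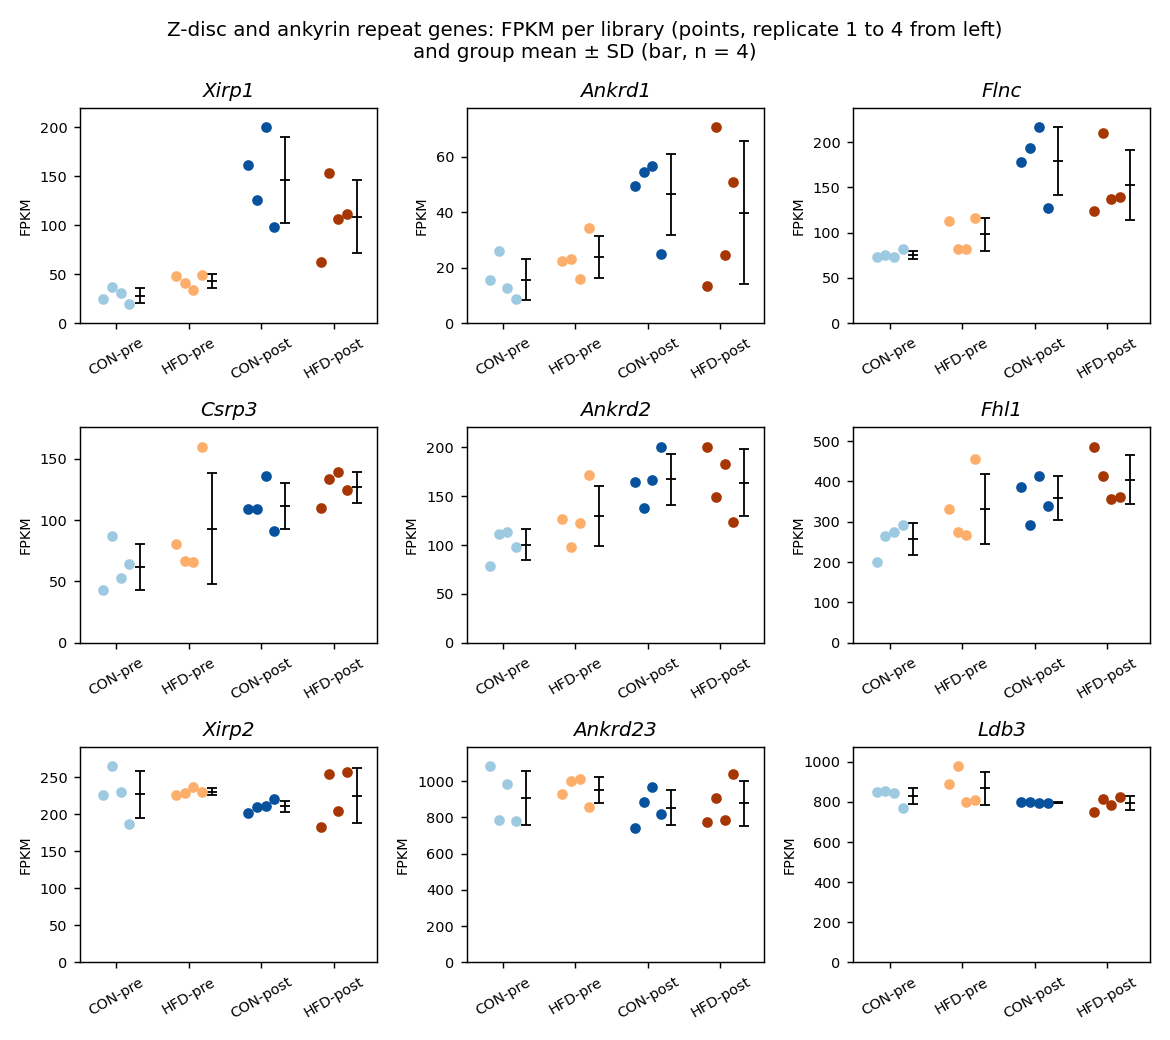
FPKM of each gene in each library (vertical axis, linear from 0), with points for the 4 libraries of each group (replicates 1 to 4 from left) and bars for the group mean ± SD (n = 4). Xirp1 lay between 19.5 and 37.2 FPKM in CON-pre and between 98.3 and 200 FPKM in CON-post, whereas Ldb3 stayed between 752 and 978 FPKM in all libraries.

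To find which of these genes responded to maximal exercise on the control diet, CON-post was compared with CON-pre. Xirp1 and Flnc were up-regulated, by 5.20-fold and 2.37-fold in mean FPKM, while Ankrd1, Ankrd2, Csrp3 and Fhl1 had higher means that did not pass the test and Ankrd23, Ldb3 and Xirp2 lay within their spread. Thus 2 of 9 genes were called (limma, adjusted p under 0.05 over all genes tested), both higher, beside 1.11% of all genes tested called in either direction and 0.968% called higher. The 4 CON-post libraries all lay above the 4 CON-pre libraries for 5 of the 9 (Xirp1, Flnc, Ankrd2, Csrp3 and Fhl1), beside 3.29% of all genes. The median log2 fold change was 0.74 for the 9 genes and -0.01 for all genes tested. Of all genes called here 87.2% were higher, and as few as 72.9% under upper-quartile, median-of-ratios or quantile scaling, with 2 of the 9 called under each.

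Xirp1, the actin-binding Xin repeat protein, stood at 24.9, 37.2, 30.9 and 19.5 FPKM in CON-pre and at 162, 125, 200 and 98.3 FPKM in CON-post (replicates 1 to 4, as in all lists that follow). The lowest CON-post library was thus well above the highest CON-pre library. The log2 fold change was 2.35 (SE 0.26, limma adjusted p = 9.2e-05), the 9th largest rise of the 11256 genes, and the call held in 28 of 28 alternative analyses.

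Flnc was measured at 72.8, 74.7, 72.6 and 81.5 FPKM in CON-pre, the tightest of its groups, and at 178, 194, 216 and 128 FPKM in CON-post. No library of one group reached the range of the other. Its log2 fold change was 1.22 (SE 0.17, limma adjusted p = 0.0011), which also held in 28 of 28 alternatives.

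Among the ankyrin repeat genes, Ankrd1 was found at 15.6, 26.0, 12.5 and 8.53 FPKM in CON-pre and at 49.6, 54.7, 56.7 and 25.1 FPKM in CON-post. CON-post replicate 4 fell just under the highest CON-pre library, so the groups overlapped, although the means (15.7 ± 7.47 and 46.5 ± 14.6, SD, n = 4) differed by 2.97-fold. The log2 fold change of 1.58 (SE 0.44) did not pass the test (limma adjusted p = 0.113).

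Ankrd2 stood at 78.5, 111, 113 and 98.5 FPKM in CON-pre and at 165, 138, 167 and 201 FPKM in CON-post, without overlap. Its log2 fold change was 0.74 (SE 0.18, limma adjusted p = 0.0572), just outside the threshold, and it was called in 6 of 28 alternatives. Ankrd23 did not follow, with 781 to 1081 FPKM in CON-pre and 743 to 968 FPKM in CON-post and a log2 fold change of -0.08 (95% interval -0.33 to 0.17, limma).

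For Csrp3, the values were 43.1, 86.7, 53.1 and 64.3 FPKM in CON-pre and 109, 109, 136 and 90.7 FPKM in CON-post. The groups did not overlap, but the gap between the highest pre and the lowest post library was small, and the log2 fold change of 0.88 (SE 0.24) was not called (limma adjusted p = 0.115). Fhl1 reached 200, 265, 275 and 291 FPKM before and 387, 291, 415 and 340 FPKM after exercise, with ranges that all but touched (log2 fold change 0.48, SE 0.17, limma adjusted p = 0.239).

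Xirp2, the larger relative of Xirp1, lay at 187 to 265 FPKM before and at 201 to 220 FPKM after the run (log2 fold change -0.10, 95% interval -0.32 to 0.13). Ldb3 was at 770 to 857 FPKM and 793 to 800 FPKM (log2 fold change -0.06, 95% interval -0.20 to 0.08). These intervals leave room for a fall of as much as 0.32 for Xirp2 and 0.20 for Ldb3 on the log2 scale, and for smaller rises.

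On the high-fat diet, HFD-post was compared with HFD-pre. Xirp1 was again up-regulated, by 2.54-fold in mean FPKM, and was the only one of the 9 genes that passed the test (1 of 9, beside 0.542% of all genes called and 0.489% called higher). Flnc had a mean 1.56-fold higher in HFD-post and was not called. The groups did not overlap for these 2 genes, beside 4.72% of all genes with every post library above every pre library, and the median log2 fold change was 0.34 for the 9 genes and 0.04 for all genes tested. The median of the 9 genes was 0.22 without HFD-pre replicate 2 and 0.48 without HFD-pre replicate 4. The higher genes made up 90.2% of all genes called, and 66.7 to 75.9% under the other scalings, with 1 of the 9 called under each.

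Xirp1 stood at 48.1, 40.5, 33.4 and 49.3 FPKM in HFD-pre and at 62.8, 154, 107 and 112 FPKM in HFD-post. HFD-post replicate 1 was nearer to the pre libraries than to the other post libraries. The log2 fold change was 1.28 (SE 0.26, limma adjusted p = 0.0347), and it was called in 17 of 28 alternatives. The adjusted p rose to 0.0558 to 0.139 when any HFD-pre library or HFD-post replicate 2, 3 or 4 was left out, and to 0.0862 without the filter on low values.

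Flnc was measured at 112, 82.1, 82.0 and 116 FPKM in HFD-pre and at 124, 210, 137 and 140 FPKM in HFD-post. The lowest post library was only slightly above the highest pre library, and the log2 fold change was 0.62 (SE 0.17, limma adjusted p = 0.147). Ankrd1 was the most uneven gene of HFD-post, with 13.3, 70.7, 24.5 and 51.1 FPKM, against 22.6, 23.0, 15.9 and 34.3 FPKM in HFD-pre. HFD-post replicate 1 was below all HFD-pre libraries and replicate 2 was the highest of all 16, so that the log2 fold change of 0.51 had an SE of 0.44 (limma adjusted p = 0.701) and ran from 0.15 without HFD-post replicate 2 to 0.94 without HFD-post replicate 1.

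Csrp3 was at 80.4, 66.3, 65.9 and 160 FPKM in HFD-pre and at 110, 133, 139 and 125 FPKM in HFD-post. The groups overlapped because HFD-pre replicate 4 exceeded every HFD-post library (log2 fold change 0.54, SE 0.24, limma adjusted p = 0.395). That same library was the highest of HFD-pre for Ankrd2 (127, 98.1, 122 and 172 FPKM), Fhl1 (331, 275, 268 and 456 FPKM), Ankrd1, Flnc and Xirp1. HFD-post reached 200, 150, 183 and 123 FPKM for Ankrd2 and 486, 413, 357 and 362 FPKM for Fhl1, and neither was called (log2 fold change 0.34, limma adjusted p = 0.477, and 0.30, limma adjusted p = 0.497). Without HFD-pre replicate 4 the log2 fold change was 0.84 for Csrp3, 0.48 for Ankrd2 and 0.47 for Fhl1, and none was called. With other single libraries left out it fell as low as 0.41 for Csrp3, 0.22 for Ankrd2 and 0.21 for Fhl1. Ankrd23 (859 to 1013 FPKM before, 776 to 1038 after), Xirp2 (226 to 237 and 183 to 258) and Ldb3 (798 to 978 and 752 to 825) overlapped between the groups.

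**Figure D2:**
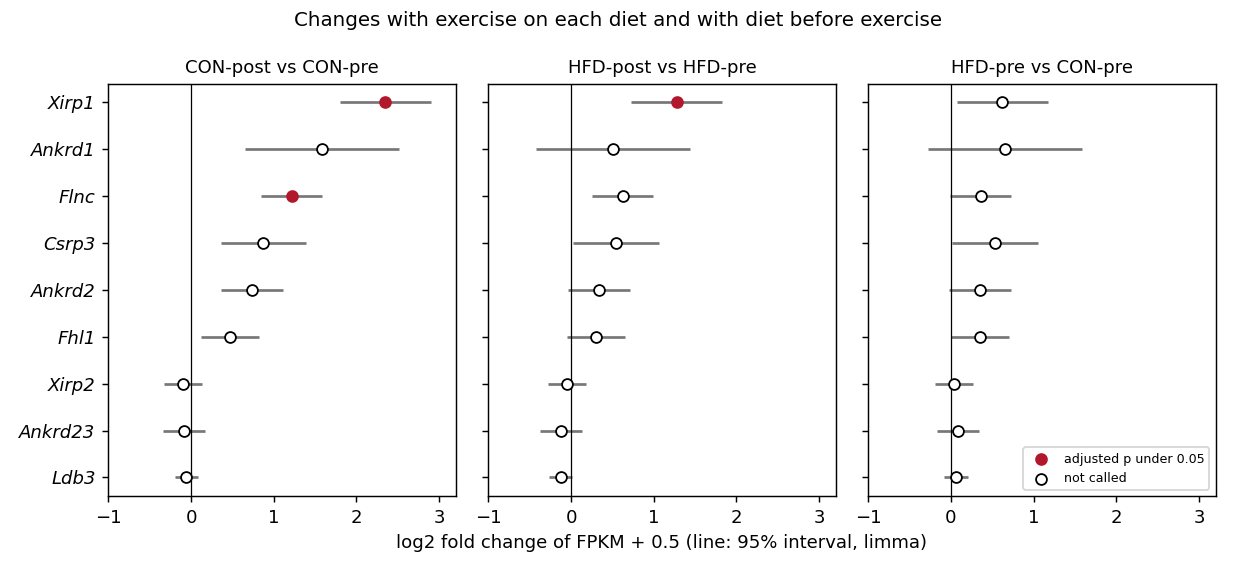
Log2 fold change of FPKM + 0.5 for each gene (points) with its 95% interval (lines, limma), for exercise on the control diet, exercise on the high-fat diet and diet before exercise, where filled points mark an adjusted p under 0.05. Xirp1 was called with exercise on both diets (2.35 and 1.28) and Flnc on the control diet (1.22), and no gene was called with diet.

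Whether the 9 genes differed with diet before exercise was examined by comparing HFD-pre with CON-pre. None was called (0 of 9, beside 0.346% of all genes), although 2 of them, Xirp1 and Csrp3, had an unadjusted p under 0.05 in limma, beside 8.25% of all genes. All 9 means were higher in HFD-pre, beside 39.6% of all genes tested with a higher estimate, and the median log2 fold change was 0.36 for the 9 genes and -0.03 for all genes. Without HFD-pre replicate 4 the median of the 9 genes was 0.21, and the log2 fold change was 0.24 in place of 0.53 for Csrp3, 0.21 in place of 0.36 for Ankrd2 and 0.18 in place of 0.35 for Fhl1. Xirp1 had a mean of 28.1 ± 7.66 FPKM in CON-pre and 42.8 ± 7.38 FPKM in HFD-pre (SD, n = 4), with overlapping ranges and a log2 fold change of 0.62 (SE 0.26, limma adjusted p = 0.522). Flnc was the only gene whose 4 HFD-pre libraries (82.0 to 116 FPKM) all lay above the 4 CON-pre libraries (72.6 to 81.5 FPKM), beside 1.68% of all genes, and its log2 fold change was 0.36 (SE 0.17, limma adjusted p = 0.616). Both exercise comparisons use the pre groups as their baseline, so the HFD-pre levels enter this difference and that between HFD-post and HFD-pre.

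After exercise, HFD-post and CON-post did not differ beyond the spread for any of the 9 genes (0 of 9 called by limma, 0 with an unadjusted p under 0.05, beside 0.151% of all genes called and 6.29% under the unadjusted threshold), and the groups overlapped for all 9. Xirp1 averaged 146 ± 44.3 FPKM in CON-post and 109 ± 37.2 FPKM in HFD-post (SD, n = 4), a log2 fold change of -0.45 with a 95% interval from -0.996 to 0.11, which was -0.21 without HFD-post replicate 1, -0.28 without CON-post replicate 3 and -0.63 without HFD-post replicate 2. For Flnc the means were 179 ± 37.7 and 153 ± 38.9 FPKM, and the log2 fold change of -0.23 had an interval from -0.60 to 0.13 and ran from -0.40 without HFD-post replicate 2 to -0.13 without CON-post replicate 3. Intervals of this width do not show that the diets gave the same level.

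The difference between the exercise responses on the 2 diets was tested directly as the interaction. No gene of the 11256 tested passed in limma (0.0% called, 356 genes or 3.16% at an unadjusted p under 0.05). The estimate was below 0 for 8 of the 9 genes, beside 60.3% of all genes with an estimate above 0, and it had an unadjusted p under 0.05 for Xirp1 (-1.07, 95% interval -1.85 to -0.29) and Flnc (-0.59, 95% interval -1.11 to -0.07), neither of which survived adjustment (limma adjusted p = 1.0 for both). For Ankrd1 the estimate was as large as for Xirp1, at -1.08, with an interval from -2.39 to 0.24. With single libraries left out it ran from -1.44 to -0.65 for Ankrd1 and from -1.26 to -0.83 for Xirp1. A different response on the 2 diets was therefore not shown for any of these genes.

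With both diets averaged in the same fit, 4 of the 9 genes were called, all higher after exercise, beside 3.86% of all genes called and 2.95% called higher. These were Xirp1 (log2 fold change 1.82, SE 0.18, limma adjusted p = 2.7e-05), Flnc (0.92, SE 0.12, limma adjusted p = 0.00032), Ankrd2 (0.54, SE 0.12, limma adjusted p = 0.0232) and Csrp3 (0.71, SE 0.17, limma adjusted p = 0.0307). Xirp1 and Flnc were called in 27 of 27 alternatives, Ankrd2 in 23 and Csrp3 in 15. Ankrd1 (1.05, limma adjusted p = 0.0746) and Fhl1 (0.39, limma adjusted p = 0.0772) stayed outside the threshold, and Ankrd23, Xirp2 and Ldb3 had estimates of -0.10, -0.07 and -0.09. The Ankrd2 call was lost without CON-pre replicate 1, HFD-pre replicate 2 or HFD-post replicate 3 (adjusted p up to 0.0563), and the Csrp3 call without any of 10 libraries (adjusted p up to 0.0704). These were CON-pre replicates 1 and 3, HFD-pre replicates 1, 2 and 3, CON-post replicates 1 and 3, and HFD-post replicates 2, 3 and 4. Of all genes called in this comparison 76.3% were higher, a share that fell to 48.8% with upper-quartile scaling, 63.1% with median-of-ratios scaling and 54.2% with quantile normalisation, while 4 of the 9 genes were called under each of these.

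Shares within the ankyrin repeat and Xin families were taken library by library. Xirp1 made up 9.44 to 12.3% of the summed FPKM of Xirp1 and Xirp2 in CON-pre and 12.4 to 17.6% in HFD-pre. After exercise its share was 30.9 to 48.7% in CON-post and 25.6 to 37.7% in HFD-post, above all pre libraries of both diets. Within the ankyrin repeat family Ankrd23 was the most abundant member in every library, with 85.1 to 92.0% of the FPKM of the family in CON-pre, 77.6 to 82.2% in CON-post, 80.6 to 89.2% in HFD-pre and 78.4 to 85.6% in HFD-post. The share of Ankrd2 was 6.68 to 12.1% before and 12.8 to 19.2% after exercise on the control diet, and 8.74 to 16.1% and 10.2 to 20.3% on the high-fat diet. Ankrd1 took 0.961 to 2.82% before and 2.41 to 5.19% after exercise on the control diet, and 1.38 to 3.22% and 1.34 to 6.28% on the high-fat diet. Pre and post shares thus overlapped for Ankrd1 on both diets and for Ankrd23 and Ankrd2 on the high-fat diet, and they were not tested. The shares are ratios within a library and show unequal change, not that any member stayed the same.

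**Figure D3:**
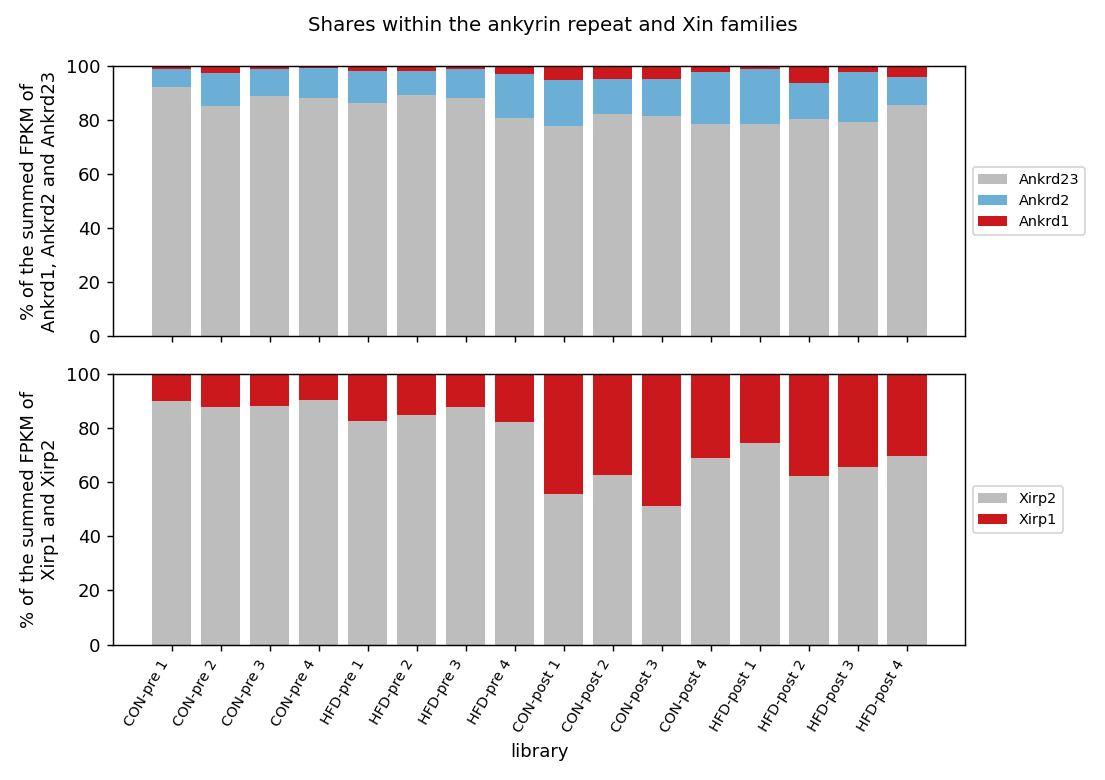
Share of each gene in the summed FPKM of its family (vertical axis, %), as stacked bars for each of the 16 libraries (horizontal axis), with the ankyrin repeat family above and the Xin family below. Xirp1 took at most 17.6% before and at least 25.6% after exercise.

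Because the slow-fibre markers (Myh7, Tnnc1, Tnni1, Tnnt1, Myl2, Myl3, Atp2a2 and Tpm3) varied between libraries, their mean centred log2 level was entered as a score, which ran from -1.04 in HFD-pre replicate 1 to 0.90 in CON-pre replicate 4, with both signs in every group. The markers tended lower on the high-fat diet, with a median log2 fold change of -0.54 in HFD-pre against CON-pre and -0.33 in HFD-post against CON-post. In both comparisons 0 of the 8 were called by limma, beside 0.346% and 0.151% of all genes. No member had a called coefficient on this score in limma (0 of 9, beside 0.329% of all genes), and 4 had an unadjusted p under 0.05, beside 14.4% of all genes. The coefficient, in log2 units per unit of the score, was above 0 for Ankrd2 (0.24, limma adjusted p = 0.200) and Fhl1 (0.18, limma adjusted p = 0.320) and below 0 for Ankrd1 (-0.54, limma adjusted p = 0.253) and Ankrd23 (-0.13, limma adjusted p = 0.304). With the score as a covariate, 4 of the 9 genes were called in CON-post against CON-pre instead of 2, since Ankrd1 (log2 fold change 1.60, limma adjusted p = 0.0461) and Ankrd2 (0.73, limma adjusted p = 0.0138) passed, with fold changes close to those without the score. In HFD-pre against CON-pre the same covariate took the log2 fold change of Ankrd1 from 0.66 to 0.35, of Ankrd2 from 0.36 to 0.49 and of Ankrd23 from 0.080 to 0.0049, and none was called. Without the score, the Ankrd1 value also moved with single libraries. It was 0.41 without CON-pre replicate 4 and 0.93 without CON-pre replicate 2.

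**Figure D4:**
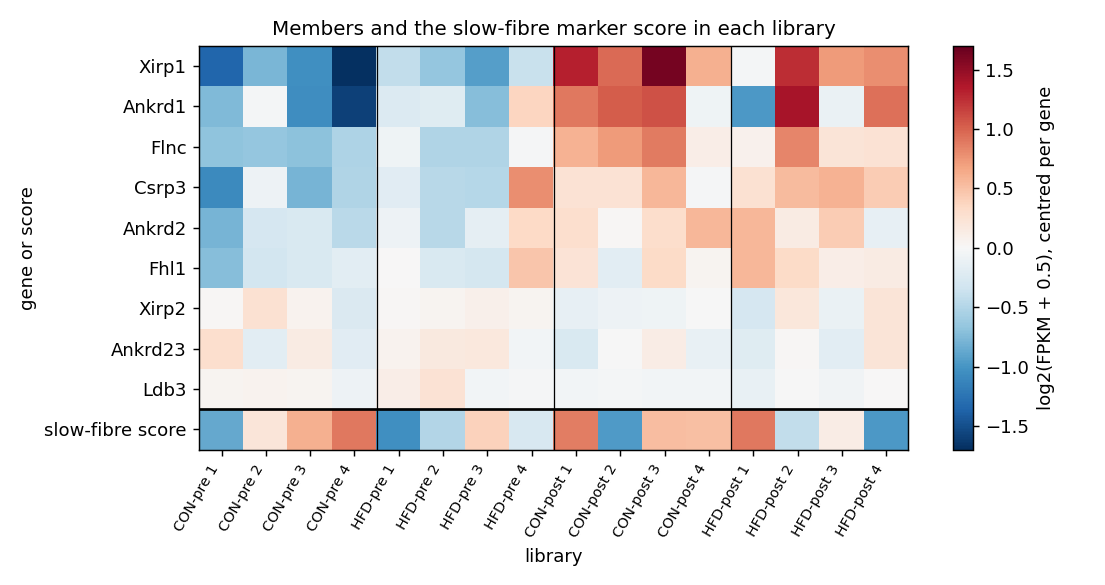
Log2(FPKM + 0.5) of each gene, centred on its mean over the 16 libraries (colour, red above and blue below the mean), with the slow-fibre score in the bottom row and lines between the 4 groups. Xirp1 and Flnc lay below their means in all 4 CON-pre libraries and above them in all 4 CON-post libraries, Flnc only slightly in CON-post replicate 4, while the slow-fibre score ran from -1.04 to 0.90 and took both signs in every group.

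The genes whose pattern over the 16 libraries was most like each member's were named by Pearson's r on the log2 scale, as a description, since the libraries share their groups and r includes the differences between groups. Nearest to Xirp1 were Enah (r = 0.986), an actin regulator, Atf3 (r = 0.978), a stress-induced transcription factor, and Dnajb4 (r = 0.975), a co-chaperone. Flnc was most like Usp28 (r = 0.958), a deubiquitinase, Klhl40 (r = 0.956), a muscle Kelch protein that stabilises thin filament proteins, and the amino acid transporter Slc38a2 (r = 0.949). Usp28 (r = 0.918) was also among the 3 nearest to Ankrd1, together with Mustn1 (r = 0.935) and Rnf115 (r = 0.914). Hspb7, a small heat shock protein that binds filamin C, was among the 3 nearest to both Csrp3 (r = 0.859) and Fhl1 (r = 0.886), and Tmem65 (r = 0.914) was nearest to Fhl1. Alpha-actinin 2, Actn2, was nearest to Ankrd2 (r = 0.873). Zhx2 (r = 0.877) was nearest to Ankrd23, Sae1 (r = 0.871) to Xirp2 and Zhx3 (r = 0.834) to Ldb3.

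Among the members themselves, Xirp1 and Flnc were the most alike pair (r = 0.947, n = 16 libraries), and r was 0.691 once each group was centred on its own mean. Within groups Ankrd1 followed Xirp1 most closely (r = 0.866 after centring). It also followed Xirp2 (r = 0.759), as Xirp1 did (r = 0.623). Ankrd2, in contrast, followed Fhl1 (r = 0.714) and ran against Ankrd23 (r = -0.656), Ldb3 (r = -0.556) and, more weakly, Ankrd1 (r = -0.328). Csrp3 stood between these sets, with r = 0.674 to Fhl1 and r = 0.554 to Flnc.

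Other genes of the same structures were counted list by list, against 1.11% of all genes called in CON-post against CON-pre, 0.542% in HFD-post against HFD-pre and 3.86% with both diets averaged. A share near these is no result about a list. Of 26 further Z-disc genes tested, 2 were called in CON-post against CON-pre, both higher, and 0 in HFD-post against HFD-pre, where limma gave 6 of them a higher and 1 a lower level at an unadjusted p under 0.05, beside 11.7% of all genes in either direction. With both diets averaged, 6 were called higher and 1 lower. Nrap, a nebulin-related anchoring protein, rose from 260 ± 26.0 to 326 ± 30.1 FPKM over both diets (SD, n = 8, log2 fold change 0.33, limma adjusted p = 0.0039). Bag3, the co-chaperone that clears damaged filamin, rose from 41.5 ± 4.12 to 56.9 ± 9.15 FPKM (0.44, limma adjusted p = 0.0050), and Myoz3, a calcineurin-binding Z-disc protein, fell from 72.7 ± 3.71 to 61.7 ± 4.3 FPKM (-0.23, limma adjusted p = 0.0158). All 3 held in 27 of 27 alternatives.

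Of 11 genes of the chaperone machinery that turns over filamin C, 4 were called higher over both diets and 0 lower, beside 3.86% of all genes called and 2.95% called higher. Besides Bag3 these included Hspb7, from 140 ± 36.2 to 202 ± 27.2 FPKM (log2 fold change 0.56, limma adjusted p = 0.0043), and Hspb1, or Hsp27, from 53.0 ± 12.8 to 100.5 ± 36.9 FPKM (0.86, limma adjusted p = 0.0202). On the control diet alone Bag3 (0.62, limma adjusted p = 0.0086) and Hspb7 (0.76, limma adjusted p = 0.0095) were called, and on the high-fat diet 0 of 11 were, with 4 higher and 1 lower at an unadjusted p under 0.05 in limma, beside the same 11.7% of all genes.

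Among 15 titin-linked and M-band genes, 1 was called higher and 2 lower over both diets, beside 3.86% of all genes. Trim63, the ubiquitin ligase MuRF1, which sits at the M-band of titin, rose from 132 ± 33.6 to 284 ± 60.3 FPKM (log2 fold change 1.12, limma adjusted p = 0.00059). The myosin chaperone partner Smyd1 (-0.21, limma adjusted p = 0.0280, called in 19 of 27 alternatives) and the MuRF family member Trim55 (-0.22, limma adjusted p = 0.0493, called in 8 of 27) fell slightly. Of 17 other LIM-domain genes only Csrp1 was called, higher (0.30, limma adjusted p = 0.0495, called in 8 of 27 alternatives), and of 21 costamere and integrin genes only Ank1, lower (-0.19, limma adjusted p = 0.0346, called in 17 of 27). Both counts are near the 3.86% of all genes called.

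Of 14 YAP/TAZ targets, a group to which Ankrd1 also belongs but which is counted here without it, 2 were called higher over both diets, and of 20 MRTF/SRF targets 4 were called higher and 1 lower, beside 3.86% of all genes called. Cyr61, a matricellular protein found in both lists, was higher on the control diet (from 6.92 ± 1.06 to 27.5 ± 9.04 FPKM, SD, n = 4, log2 fold change 1.87, limma adjusted p = 5.0e-05) and on the high-fat diet (from 9.07 ± 1.67 to 23.2 ± 1.29 FPKM, 1.32, limma adjusted p = 0.0034). Amotl2, a Hippo pathway scaffold, was called higher with both diets averaged (0.44, limma adjusted p = 0.0151), as were the immediate early genes Egr1 (1.38, limma adjusted p = 0.0039) and Fos (1.07, limma adjusted p = 0.0167). On the control diet Fos had a log2 fold change of 1.79 (limma adjusted p = 0.0090) and Egr1 of 1.51 (limma adjusted p = 0.0455, called in 13 of 28 alternatives). On the high-fat diet the values were 0.36 for Fos (limma adjusted p = 0.722) and 1.26 for Egr1 (limma adjusted p = 0.143), and neither was called.

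Of 16 Hippo and mechanosensing regulators, Nfatc1, the calcineurin-dependent transcription factor, was called higher (0.33, limma adjusted p = 0.0232) and Mef2c lower (-0.20, limma adjusted p = 0.0199) over both diets, again beside 3.86% of all genes. Of 9 muscle regeneration genes only Myf6, the myogenic factor of mature fibres, was called, higher (0.42, limma adjusted p = 0.0148), and of the 8 slow-fibre markers 0 were called, with 0 at an unadjusted p under 0.05 in limma, beside 18.5% of all genes. Before exercise, 0 genes of any of these 10 lists were called between the diets by limma, with 0 to 4 genes of a list at an unadjusted p under 0.05, beside 0.346% and 8.25% of all genes. Of the genes named from these lists, Nrap, Bag3, Hspb7, Trim63, Cyr61, Fos and Egr1 were called in CON-post against CON-pre (Nrap in 11 of 28 alternatives), and of these Cyr61 in HFD-post against HFD-pre.

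Markers of other cells were examined beside these changes, again against 3.86% of all genes called with both diets averaged. Of 5 smooth muscle markers 1 was called over both diets, Tagln, which is also an MRTF/SRF target (log2 fold change 0.43, limma adjusted p = 0.0215), and the summed FPKM of the 5 was 36.3 to 44.1 in CON-pre, 40.9 to 47.5 in HFD-pre, 43.1 to 53.7 in CON-post and 41.8 to 56.0 in HFD-post. Of 4 endothelial markers Pecam1 was called (from 16.4 ± 1.49 to 21.2 ± 1.29 FPKM, SD, n = 8, limma adjusted p = 0.0014), also in HFD-post against HFD-pre (limma adjusted p = 0.0347, called in 17 of 28 alternatives), with a summed level of all 4 of 37.02 to 46.9 FPKM in CON-pre and of 41.6 to 49.9, 44.3 to 56.9 and 46.3 to 50.0 FPKM in HFD-pre, CON-post and HFD-post. No blood, macrophage, cardiac or tendon and fibroblast marker was called between any groups compared. The cardiac list summed to 79.5 to 228 FPKM in CON-pre, 101 to 195 in HFD-pre, 62.8 to 133 in CON-post and 69.9 to 103 in HFD-post. Adipocyte markers summed to 123 to 197 FPKM in CON-pre and 63.6 to 76.6 in HFD-pre, and to 106 to 198 and 57.4 to 164 in CON-post and HFD-post, and the adipokines Lep and Cfd were called between the diets, Lep higher and Cfd lower in HFD, before and after exercise. Of 10 skeletal muscle fibre markers 0 were called between any groups compared by limma, with 5 lower and 1 higher at an unadjusted p under 0.05 in HFD-pre against CON-pre, beside 8.25% of all genes. Their summed FPKM was 60611 to 65509 in CON-pre and 54521 to 58573 in HFD-pre, which did not overlap, and 53812 to 62430 in CON-post and 49485 to 57298 in HFD-post. The part of these markers and cells in the levels of the 9 genes was not tested.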

How the data were processed

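Quadriceps RNA of 16 mice was sequenced, and the authors prepared stranded mRNA libraries, trimmed the reads, aligned them with TopHat and estimated expression with Cufflinks (tools also named in the submitters' processing notes, without versions). The authors deposited FPKM, scaled for transcript length and mapped fragments, so read counts are not given, relative depth was read only from low values, and the number of mice, 4 per group, limits the precision. Nothing in the labels ties same-numbered libraries to a shared litter or day.

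Of 24487 entries, 27 with numbers for names were left out and 260 symbols in several entries were summed, and each of the 9 genes had 1 entry. All columns of sample values were used. Genes whose FPKM averaged 0.5 or more were tested on log2(FPKM + 0.5) with limma 3.58.1 in R 4.3.3 (statmod 1.5.0), in 1 fit of the 4 groups that allows for a mean-variance trend, two-sided, with Benjamini-Hochberg adjustment over 11256 genes and a threshold of 0.05. Fold changes of low genes are understated by the added 0.5. The slow-fibre coefficient came from the same fit with the score added. The code was tested on simulated data. Python 3.11.15 with pandas 2.3.3, numpy 2.4.6 and matplotlib 3.10.9 made the tables and plots.

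Results were recomputed with a pseudocount of 0.1 or 1, no filter or one at a mean of 1 FPKM, 3 scalings, no trend, array weights, a replicate block, only the groups compared, the slow-fibre score as a covariate and leaving out each library. The 9 genes, the lists of related genes and the marker lists were chosen with earlier results of these data known. The rule allowed naming up to 3 called genes with the lowest adjusted p per list and comparison, and for each member the 3 genes of highest Pearson's r; not all of these are printed. Tagln, Pecam1, Lep and Cfd were named as called markers after their values were seen. A gene that this rule would name is left out.

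Positions and promoters are from RefSeq GRCm38.p6. The methods name mm9, but 692 of 692 loci printed by the study overlapped their gene in GRCm38 and 114 in mm9.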

Additional observations from a re-analysis of the deposited data

Results flagged for a closer look

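Of the 36 sets of 4 libraries (9 genes in 4 groups), 2 held a library far from the other 3, where chance alone gives about 1 in 20. Csrp3 stood at 160 FPKM in HFD-pre replicate 4, against 65.9 to 80.4 FPKM in the other HFD-pre libraries (gap over range 0.845). Without this library 4 of the 9 genes were called in CON-post against CON-pre, 0 in HFD-post against HFD-pre and 5 with the diets averaged, and the Csrp3 difference between HFD-pre and CON-pre was 0.24 on the log2 scale instead of 0.53. Ldb3 stood at 770 FPKM in CON-pre replicate 4, against 845 to 857 FPKM in the others (gap over range 0.859), and was not called in any comparison of groups.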

How the results depend on the processing

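The number of the 9 genes called in CON-post against CON-pre was 4 in place of 2 with the slow-fibre score as a covariate or with array weights, and 2 to 4 with single libraries left out. In HFD-post against HFD-pre it was 0 in place of 1 without the filter, without the trend, with the replicate block and with only the 2 groups compared, and 0 to 1 with libraries left out. With the diets averaged it was 2 in place of 4 without the filter, 6 with array weights (adding Ankrd1, adjusted p = 0.0318, and Fhl1, adjusted p = 0.0402), 5 with the slow-fibre covariate (adding Ankrd1, adjusted p = 0.0263) and 2 to 5 with libraries left out. The counts for diet before exercise, diet after exercise, the interaction and the slow-fibre coefficient were 0 in every alternative run. Same-numbered libraries did not deviate together more than others (r from -0.220 to 0.213 over 24 pairs, against -0.221 to 0.212 over 72 pairs with other numbers). This gave no sign of pairing by number, but it cannot settle whether mice shared a litter or day. Beside the loss of Xirp1 in HFD-post, the block ended the Csrp3 call over both diets (limma adjusted p = 0.0508).

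Directions turned in these cases, where the cause was not tested. With the slow-fibre covariate Xirp2 in HFD-pre against CON-pre was -0.025, and in HFD-post against CON-post Ankrd2 was 0.037 and Ankrd23 -0.0086. Array weights gave Ldb3 0.0051 in HFD-post against CON-post, and quantile scaling gave Ankrd23 0.017 in the interaction. With libraries left out, log2 fold changes in HFD-post against CON-post ran from -0.78 to 0.0090 for Ankrd1, -0.14 to 0.087 for Ankrd2, -0.049 to 0.099 for Ankrd23 and -0.022 to 0.022 for Ldb3. Xirp2 ran from -0.056 to 0.11 in HFD-pre against CON-pre and from -0.12 to 0.044 in HFD-post against HFD-pre, and Ankrd23 from -0.15 to 0.0088 in CON-post against CON-pre. In the interaction Ankrd23 ran from -0.13 to 0.022 and Xirp2 from -0.031 to 0.14. The slow-fibre coefficient of Csrp3, 0.039, was -0.079 without CON-pre replicate 1.

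FPKM carry no counts, so counting error cannot be separated from the spread between mice, and Ankrd1, at the lowest level and with an SE of 0.44 in each comparison of 2 groups, is the least certain of the 9 genes.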

Other observations

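The spread between libraries of a group differed widely among the 9 genes. The coefficient of variation of FPKM was 0.393% for Ldb3 in CON-post and 1.89% for Xirp2 in HFD-pre, and it reached 65.1% for Ankrd1 in HFD-post and 48.3% for Csrp3 in HFD-pre. Xirp1 varied by 17.2 to 34.2% within groups, and Flnc by 5.52% in CON-pre and 25.5% in HFD-post.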
